A study of Canis lupus familiaris with 6 samples.

Results

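Transcripts of 9 genes of extracellular matrix turnover were followed in MDCK cells, an epithelial line from dog kidney that forms polarised sheets: the matrix metalloproteinases MMP2, MMP7, MMP9, MMP13, MMP14 and MMP15 and the tissue inhibitors TIMP1, TIMP2 and TIMP3. The genes were taken by symbol from tables of 41401 gene symbols, and the set was put together because MMP13 and MMP9 were seen to be higher after knockdown, so every value after knockdown below is a description of what chose them and carries no test. All 9 symbols were found, and 6 of them reached a mean of at least 1 FPKM (a fragment count divided by the length of the transcript and by the mapped total of the library) over the 6 libraries, the minimum for entering a test. The other members, MMP2, MMP7 and MMP14, did not.

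The 6 libraries came from 3 lines, each given control siRNA or PRL1 siRNA. They were wild-type MDCK cells and 2 mutant clones with the genotype PRL2-/-; PRL1+/-, here called clone 1 and clone 2. PRL1 and PRL2 are small phosphatases, encoded by PTP4A1 and PTP4A2, that bind magnesium transporters of the CNNM family. RNA was taken 18 h after the second of successive siRNA transfections. Each mutant line is a single clone, wild type has 1 library per siRNA, and how the alleles were disrupted is not in the labels.

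Matrix metalloproteinases are zinc-dependent endopeptidases that cut collagens, laminins and other matrix proteins, and also release growth factors and receptors from the cell surface. They are made as inactive precursors held shut by a cysteine in the propeptide, and they are opened by plasmin, by furin-like convertases or by one another. TIMPs are secreted proteins that plug the active site. In kidney tubules the balance of both is known for its part in remodelling the tubular basement membrane.

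PTP4A1, the target of the siRNA, was at 61.7 to 69.9 FPKM in the 3 control libraries and at 33.1 to 37.8 in the 3 knockdown libraries. FPKM hides the number of fragments, but relative depth read from the lowest values was between 0.766 and 0.914 of the wild-type control library in the other 5, and in each line the knockdown library was the shallower one. The part of depth in the results was not tested. All 12 markers of kidney epithelium were above the 1 FPKM minimum. Of 9 fibroblast markers 0 reached it, and their summed level was 0.147 to 0.327 FPKM in control and 0.205 to 0.475 FPKM in knockdown libraries, with LUM and THY1 at 0 throughout. Of 10 leukocyte markers, 2 reached it, CD14 among them, and PTPRC, CD3E and MS4A1 were at 0 in all libraries; the summed level was 7.71 to 8.78 FPKM in control and 7.42 to 9.48 FPKM in knockdown libraries. Endothelial markers summed to 0.767 to 1.26 and 0.909 to 1.21 FPKM, with 0 of 6 reaching the minimum.

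MMP13, collagenase-3, which cleaves fibrillar collagen, covered the widest range of the members. Its level was 0.492 FPKM in wild type under control siRNA and 9.05 FPKM after PRL1 knockdown. In clone 1 the corresponding levels were 1.98 and 68.7 FPKM, and in clone 2 they were 28.8 and 409.8 FPKM. The knockdown library was the higher one in each line, but the control and knockdown groups overlapped, because clone 2 under control siRNA lay above wild type after knockdown. Ranked against all genes of its own library by FPKM, MMP13 held place 13288 in wild type under control siRNA and place 7079 after knockdown. The places were 10872 and 1167 for clone 1, and 3110 and 149 for clone 2.

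The order of the lines for the MMP13 difference depended on the scale. On log2(FPKM + 1), the scale used for all tests, the difference between knockdown and control was 2.75 in wild type, 4.55 in clone 1 and 3.79 in clone 2. As a plain ratio of FPKM it was 18.4-fold in wild type, 34.8-fold in clone 1 and 14.2-fold in clone 2, so wild type and clone 2 changed places. The wild-type ratio divides by a control level of 0.492 FPKM, under 1 FPKM, so its size is uncertain. As a gain in FPKM the order was different again, with 8.56 in wild type, 66.8 in clone 1 and 381 in clone 2. Clone 1 had the largest ratio and clone 2 the largest gain. A difference between lines in the size of the knockdown effect was not tested.

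MMP9, gelatinase B, which cleaves denatured collagen and basement membrane collagen, was higher after knockdown in each line over a much narrower range. Under control siRNA it was at 9.65 FPKM in wild type, 12.0 FPKM in clone 1 and 17.3 FPKM in clone 2. After knockdown the levels were 24.8 FPKM in wild type, 39.3 in clone 1 and 36.7 in clone 2. All 3 knockdown libraries lay above all 3 control libraries, a separation seen in that direction for 12.6% of the genes tested. The ratios of FPKM were 2.57, 3.28 and 2.11 in the same order of lines. Clone 2 had the highest MMP9 level of the control libraries and the smallest ratio.

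**Figure D1:**
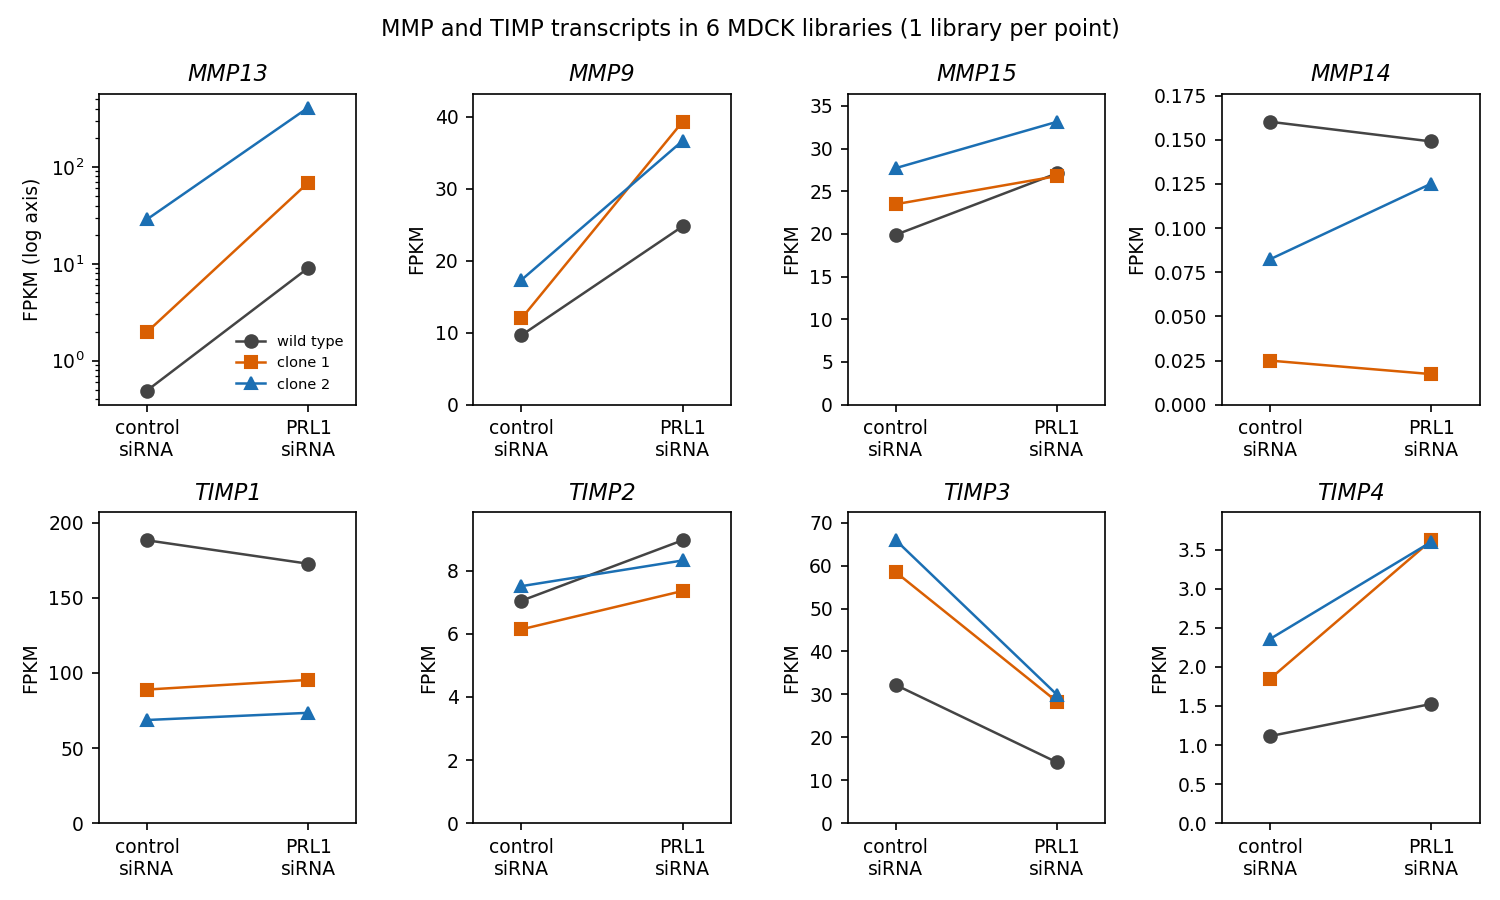
FPKM of 7 members and of TIMP4 under control siRNA and PRL1 siRNA, with 1 point per library and a line joining the libraries of 1 line; the axis is logarithmic for MMP13 and linear from 0 for the others. MMP13 and MMP9 are higher and TIMP3 is lower after knockdown in wild type and both clones, and TIMP1 separates wild type (173 to 188 FPKM) from the clones (68.6 to 95.3 FPKM).

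MMP15, a membrane-type metalloproteinase anchored at the cell surface, was the most abundant MMP in the control libraries of wild type and clone 1. Its levels were 19.9, 23.5 and 27.7 FPKM under control siRNA in wild type, clone 1 and clone 2, and 27.1, 26.8 and 33.1 FPKM after knockdown. It was higher after knockdown within each line, but the groups overlapped, and the differences of 0.43, 0.18 and 0.25 log2 units lay inside the central 95% of genes tested in each line.

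The other members were at or near 0. MMP14, the membrane-type enzyme best known for activating MMP2, was between 0.0173 and 0.160 FPKM, with the lowest values in both clone 1 libraries. MMP2, gelatinase A, and MMP7, matrilysin, were listed at 0 in all 6 libraries. An exact 0 in such a table can be a failed estimate. In a check of 15 genes that every cell uses, 0 were listed at 0 in any library. None of the 15 was under 1 FPKM in any library, so the check cannot speak for low genes. Over all 41401 symbols, 13470 were at 0 in all 6 libraries. No fold change is given for MMP14, MMP2 or MMP7.

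TIMP3, the inhibitor that binds to the matrix and also blocks several ADAM proteases, was the member that was lower after knockdown in every line. Its control levels were 32.2, 58.5 and 65.9 FPKM for wild type, clone 1 and clone 2, and its levels after knockdown were 14.2, 28.3 and 29.9 FPKM. All 3 knockdown libraries lay below all 3 control libraries, as they did for 16.2% of the genes tested. The control libraries held 2.27, 2.07 and 2.203 times the FPKM of the knockdown libraries, so the ratio varied far less between lines than that of MMP13. TIMP3 ranked 35th, 52nd and 39th from the bottom of 12125 genes by its difference in wild type, clone 1 and clone 2. MMP13 ranked 5th, 4th and 8th from the top, and MMP9 ranked 33rd, 41st and 58th.

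TIMP1, the secreted inhibitor that also binds the MMP9 precursor, was the most abundant member in every library except clone 2 after knockdown, where MMP13 exceeded it. It was at 188 FPKM in wild type under control siRNA and 173 after knockdown. Its levels were 88.9 and 95.3 FPKM in clone 1 and 68.6 and 73.4 FPKM in clone 2. The difference after knockdown was -0.12 log2 units in wild type and 0.10 in each clone, smaller than the gap between wild type and the clones. TIMP2, which inhibits MMPs and also helps MMP14 to activate MMP2, was at 6.14 to 7.51 FPKM in control and 7.36 to 8.97 FPKM in knockdown libraries. TIMP2 was higher by 0.31, 0.23 and 0.13 log2 units in wild type, clone 1 and clone 2.

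Of the 6 members measured, MMP13 and MMP9 were at least 2-fold higher after knockdown in all 3 lines on the log2(FPKM + 1) scale, as were 0.107% of the genes tested (13 of 12125). TIMP3 was at least 2-fold lower in all 3 lines, as were 0.099% (12 genes). MMP13, MMP9, MMP15 and TIMP2 were higher by any amount in all 3 lines, where 31.6% of genes were, and TIMP3 was lower, where 35.8% were. Because the members were chosen on this comparison, these counts describe them and nothing is read from them.

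**Figure D2:**
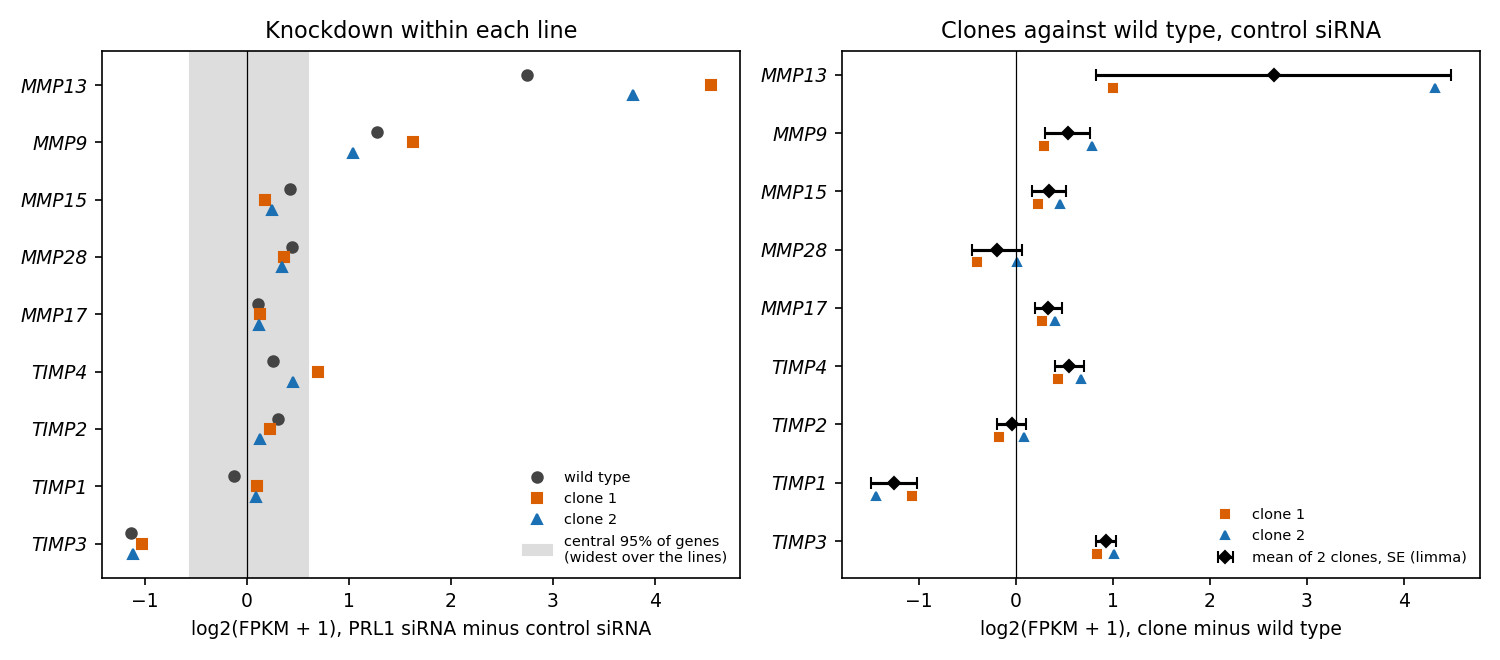
Left, the difference in log2(FPKM + 1) between PRL1 siRNA and control siRNA within each line (1 symbol per line), with the central 95% of genes tested shaded (the widest limits over the lines); right, clone minus wild type under control siRNA, for each clone and as the limma mean of 2 clones with its SE. On the left MMP13, MMP9 and TIMP3 lie outside the shaded band in all 3 lines; on the right the SE of MMP13 is wide because its clones differ, while TIMP1 lies below 0 and TIMP3 above 0 in both clones.

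The set was put together because of MMP13 and MMP9 after knockdown, so clones against wild type under control siRNA were tested. This comparison shares its control libraries with the knockdown differences, and earlier results of these data were known. It is thus not fully independent of the choice of members. TIMP1 was lower and TIMP3 higher in both clones. TIMP1 in wild type was 2.12 times the level in clone 1 and 2.74 times that in clone 2, a difference of -1.26 ± 0.24 log2 units (SE, 2 clones against 1 wild-type library, limma adjusted p = 0.259, unadjusted p = 0.0062). TIMP3 was 1.82-fold higher in clone 1 and 2.05-fold higher in clone 2, a difference of 0.93 ± 0.10 (limma adjusted p = 0.245, unadjusted p = 0.000889). The 95% intervals were -1.92 to -0.60 for TIMP1 and 0.64 to 1.21 for TIMP3, without adjustment for the number of genes. The spread behind every SE, p-value and interval of this comparison came from the same 2 clones under both siRNAs, taken as independent. Deviations of same-clone libraries from the group means correlated at r = 0.595 across genes, so these measures may be too narrow. Neither passed after adjustment, nor did any other gene: limma called 0% of 12125 genes in this comparison, with 1632 at an unadjusted p under 0.05. On the log2(FPKM + 1) scale TIMP1 was among the 0.371% of genes at least 2-fold lower in both clones, and 0 members were among the 0.462% at least 2-fold higher in both. MMP13 fell just short there (0.997 log2 units in clone 1 and 4.32 in clone 2), although its plain FPKM ratios exceeded 2-fold in both clones.

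The same ordering of lines was present after knockdown. TIMP1 in wild type was 1.81 times the level in clone 1 and 2.35 times that in clone 2, and TIMP3 was 2.00-fold and 2.11-fold higher in clone 1 and clone 2 than in wild type. These knockdown libraries belong to the same lines and are not further replicates of the genotype.

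MMP13 under control siRNA was 4.02-fold higher in clone 1 and 58.5-fold higher in clone 2 than in wild type. Both ratios divide by 1 wild-type library at 0.492 FPKM, under 1 FPKM, so their size is uncertain. The clones differed from each other by 14.6-fold, and the mean difference of 2.66 ± 1.83 log2 units did not exceed that spread (limma adjusted p = 0.592). It was 1.00 without the clone 2 control library and 4.32 without that of clone 1. MMP9 was 1.24-fold and 1.80-fold higher in clone 1 and clone 2, a difference of 0.535 ± 0.23 (limma adjusted p = 0.423), which was 0.29 without the clone 2 control library. MMP15 and TIMP2 differed by 0.34 ± 0.18 and -0.05 ± 0.15 (limma adjusted p = 0.483 and 0.925). For MMP15 the 95% interval reached from -0.15 to 0.83 and for TIMP2 from -0.47 to 0.37, without adjustment for the number of genes.

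FPKM is scaled by transcript length, so levels can be added over genes. The 21 MMP symbols of the members and of a list of other MMPs summed to 44.2 FPKM in wild type under control siRNA and 79.7 FPKM after knockdown. The sums were 48.3 and 148.6 FPKM in clone 1 and 88.0 and 498 FPKM in clone 2. The 4 TIMP genes summed to 229 and 197 FPKM in wild type, to 155 and 135 FPKM in clone 1, and to 144 and 115 FPKM in clone 2. TIMP transcripts exceeded MMP transcripts in all 3 control libraries and in the wild-type knockdown library, and MMP transcripts exceeded TIMP transcripts in both knockdown libraries of the clones.

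The ratio of summed MMP to summed TIMP FPKM was 0.194 in wild type under control siRNA and 0.404 after knockdown. It was 0.311 and 1.104 in clone 1 and 0.610 and 4.32 in clone 2. The share of MMP13 in the MMP sum was 1.11% under control siRNA and 11.4% after knockdown for wild type, 4.095% and 46.3% for clone 1, and 32.7% and 82.4% for clone 2. Without MMP13 the ratio was 0.191 and 0.358 for wild type, 0.298 and 0.593 for clone 1, and 0.410 and 0.761 for clone 2. It was still higher after knockdown in each line, and it stayed under 1 in every library. This ratio still held MMP9, for which the set was also chosen, and TIMP3, so it describes no wider shift of the family. These are ratios of transcripts, and no protein or enzyme activity was measured.

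**Figure D3:**
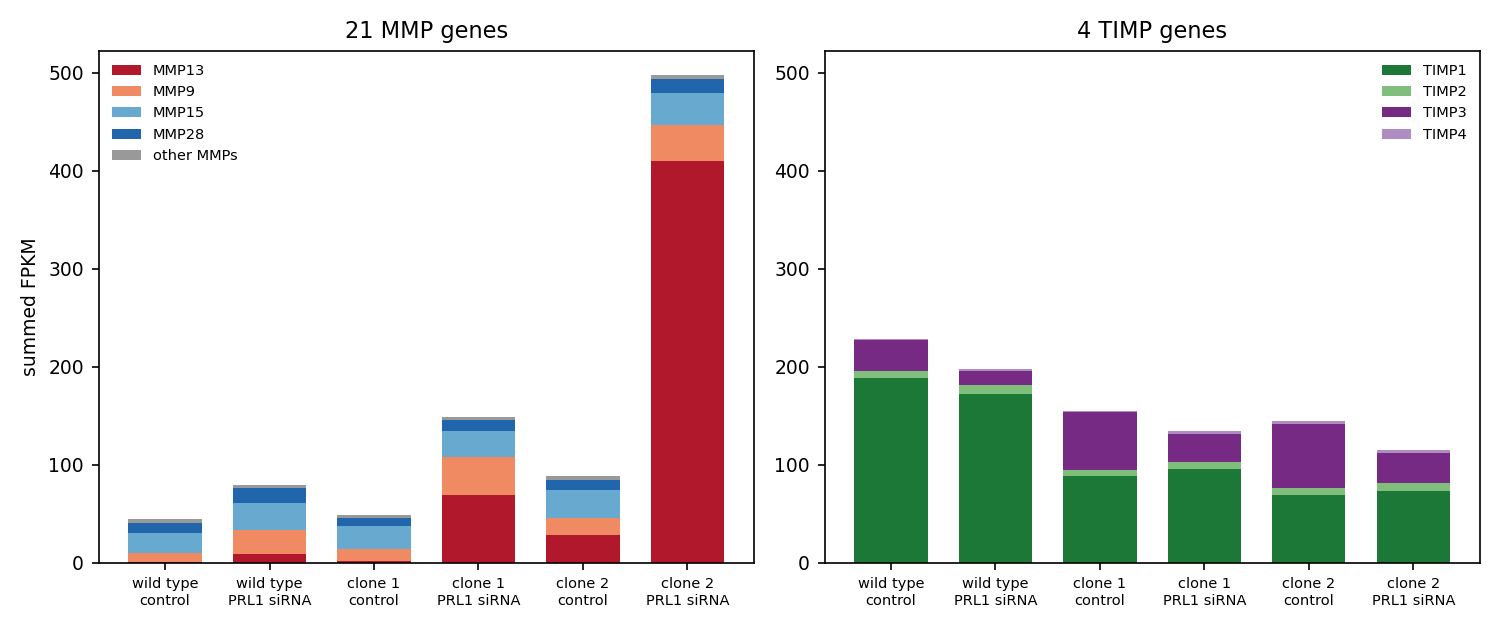
Stacked bars of FPKM in each library for 21 MMP genes (left) and 4 TIMP genes (right), on the same linear axis from 0. The MMP sum ranges from 44.2 FPKM in the wild-type control library to 498 FPKM in the clone 2 knockdown library, of which MMP13 is 82.4%, while the TIMP sum ranges from 229 down to 115 FPKM.

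The make-up of the TIMP pool also differed between lines. TIMP1 was 82.3% of it in wild type under control siRNA, 57.2% in clone 1 and 47.5% in clone 2, and TIMP3 was 14.1%, 37.6% and 45.6%. After knockdown TIMP1 made up 87.5%, 70.8% and 63.7%, and TIMP3 7.18%, 21.03% and 26.0%. TIMP1 exceeded MMP9 in every library, by 19.5-fold in wild type under control siRNA and by 2.00-fold in clone 2 after knockdown.

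MMP13 stands at one end of a cluster of MMP genes in the dog genome, by the gene order of RefSeq assembly UU_Cfam_GSD_1.0, from which only names and order were taken. Next to it on one side are DCUN1D5, a neddylation factor, and DYNC2H1, a motor of cilia, and on the other MMP12, MMP3, MMP1, MMP8, MMP27, MMP20 and MMP7. MMP12, MMP3, MMP8 and MMP7 were listed at 0 in all 6 libraries, and MMP1, MMP27 and MMP20 did not exceed 0.0331 FPKM. DCUN1D5 was at 22.7 to 29.9 FPKM, with differences after knockdown of -0.13, -0.14 and -0.16 log2 units in wild type, clone 1 and clone 2. DYNC2H1 was at 5.15 to 5.71 FPKM, with differences of 0.07, 0.09 and 0.13 log2 units in the same order of lines. Among the named genes of this stretch, MMP13 thus had the largest difference after knockdown in each line. Its level was not the highest everywhere: in wild type after knockdown DCUN1D5, at 22.7 FPKM, lay above MMP13, at 9.05 FPKM.

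**Figure D4:**
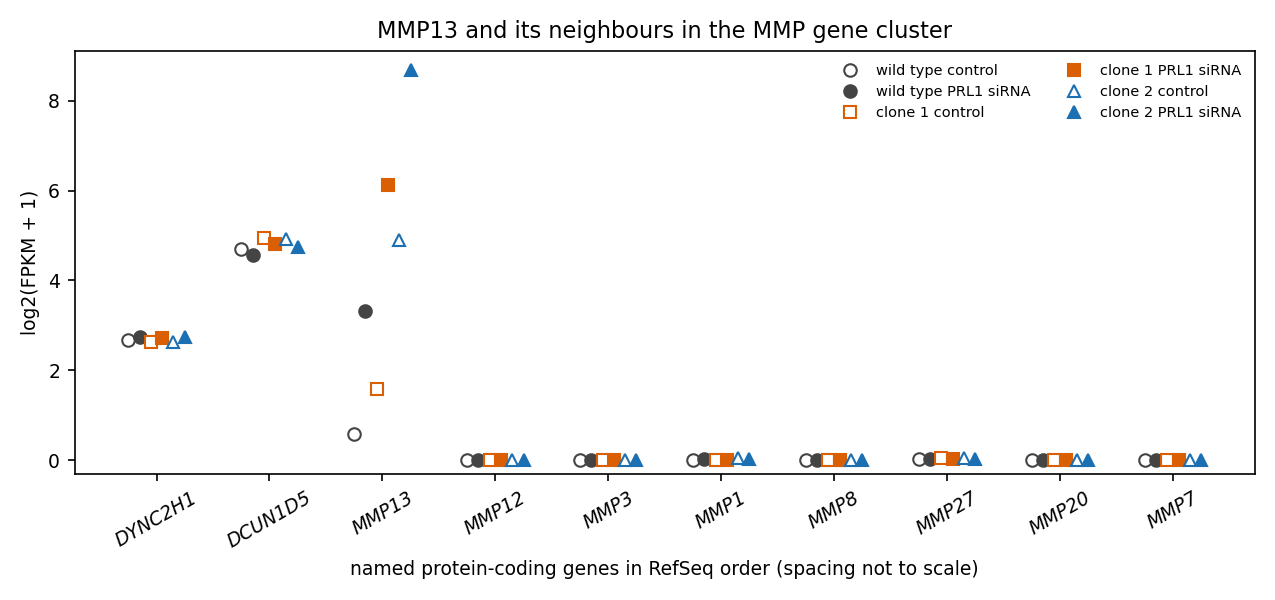
log2(FPKM + 1) of MMP13 and of named protein-coding genes beside it in RefSeq order, with 1 symbol per library, open for control siRNA and filled for PRL1 siRNA. MMP13 spreads from 0.492 to 409.8 FPKM, while the 7 other MMP genes of the cluster lie at or near 0.

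The levels of genes beside the other members ranged widely. ZNF335 and SLC12A5 flank MMP9, and ZNF335 was at 3.58 to 4.47 FPKM while SLC12A5 did not exceed 0.0163. On either side of TIMP2, CANT1 was at 134 to 212 FPKM and USP36 at 5.71 to 7.61 FPKM. Differences after knockdown in wild type, clone 1 and clone 2 were 0.10, 0.16 and 0.16 log2 units for CANT1. For USP36 they were -0.03, -0.17 and -0.20. CFAP20 and USB1 flank MMP15 and were at 12.0 to 14.8 and 13.8 to 18.4 FPKM. The low MMP14 lies between MRPL52 at 42.1 to 52.2 FPKM and LRP10 at 38.6 to 49.8 FPKM, and TMEM123 beyond MMP7 was at 32.0 to 41.1 FPKM. FBXO7, next to TIMP3, was at 22.3 to 27.1 FPKM, with differences after knockdown of 0.12, 0.11 and 0.19 log2 units in wild type, clone 1 and clone 2, against the lower TIMP3 values in each line. CFP beside TIMP1 and CAPNS2 and IRX6 beside MMP2 did not exceed 0.257, 0.107 and 0.0577 FPKM. In RefSeq TIMP1 overlaps SYN1, TIMP3 overlaps SYN3 and MMP14 overlaps SLC7A7. SYN1 and SYN3 did not exceed 0.120 and 0.168 FPKM, and SLC7A7 was at 0.183 to 0.429 FPKM. At these low levels SYN3 differed after knockdown by -0.035, -0.046 and -0.024 log2 units in wild type, clone 1 and clone 2, lower like TIMP3. Whether the counting used strand is not given in the sources used here. Fragments of overlapping genes may have been shared, and this was not tested.

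Genes with the pattern most like MMP13 were sought by Pearson's r of log2(FPKM + 1) over the 6 libraries, among 736 named genes with a range of at least 1 log2 unit. The 5 highest were PLAAT4 (r = 0.996), C1S (0.995), GBP1 (0.991), GLUL (0.988) and GBP5 (0.985). C1S, a protease of the complement pathway, was at 26.5 FPKM in the wild-type control and 43.7 in the wild-type knockdown library, at 30.5 and 66.97 in clone 1, and at 53.1 and 89.2 in clone 2. GBP1, an interferon-inducible GTPase, was at 0.243 and 1.14 FPKM, 0.657 and 4.45 FPKM, and 2.47 and 6.87 FPKM in the same order. Like MMP13, both were lowest in the wild-type control library and highest in the clone 2 knockdown library.

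For MMP9 the 5 highest were CDH16 (r = 0.994), GBP6 (0.989), GLIS2 (0.989), CCL7 (0.984) and TTYH3 (0.979). CDH16, the kidney cadherin, was at 3.08 FPKM in the wild-type control and 5.61 in the wild-type knockdown library, at 3.13 and 7.82 in clone 1, and at 4.48 and 7.67 in clone 2. CCL7, a chemokine, was at 1.02 and 4.49 FPKM, 1.34 and 12.5 FPKM, and 3.00 and 14.2 FPKM in the same order. The 6 libraries share the siRNA contrast and the lines, so these coefficients are descriptions of likeness only.

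Genes around the members were tested after knockdown over all 3 lines. The lists were chosen with earlier results of these data known. Up to 4 genes of each list are named, by the largest mean difference in this same comparison. Their p-values are adjusted over all genes tested, but they are no independent support for the named genes. With 4 groups and no pairing, limma called 0% of 12125 genes (smallest adjusted p = 0.0516, 3407 genes at an unadjusted p under 0.05). That unpaired fit was set as the main one, and the line as block was an alternative to it. The libraries of 1 line pair by origin, and with the line as block limma called 17.6% of genes higher and 21.7% lower. Below, "rose" and "fell" refer to this paired fit with its Benjamini-Hochberg adjusted p, and none of these calls was made by the unpaired fit. The log2 difference is the mean of 3 lines ± SE. The median over all genes tested was -0.01. With no filter on low values the paired fit called fewer genes, and of the genes named below as called only MMP28, ADAM10, ITGAV, LAMC1, NFKB2, FOS and PAX8 still passed. Without clone 1 the paired fit called 749 genes higher and 960 lower, and without clone 2 it called 1103 and 1318, against 2130 and 2632 over all 3 lines.

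Among 17 other MMPs, 15 were in the tables and 13 of these had a mean under 1 FPKM. MMP10 and MMP23B were not analysed here. A row named MMP23, at 0.312 to 0.907 FPKM, was counted neither here nor in the MMP sums. MMP28, epilysin, an enzyme of resting epithelia, rose by 0.38 ± 0.04 (adjusted p = 0.00282; 0.243 without pairing), from 10.8 to 15.0 FPKM in wild type, 7.94 to 10.5 in clone 1 and 10.9 to 14.1 in clone 2. MMP17, a membrane-type MMP with a lipid anchor, was at 1.32 to 2.33 FPKM and did not pass (0.12 ± 0.07, adjusted p = 0.185). Among 4 other inhibitors, 2 were measured. TIMP4 rose by 0.47 ± 0.10 (adjusted p = 0.0159; 0.0909 without pairing), from 1.11 to 1.53 FPKM in wild type, 1.85 to 3.62 in clone 1 and 2.36 to 3.60 in clone 2, opposite in direction to the TIMP3 values. That call was lost without clone 1 (adjusted p = 0.0678) or clone 2 (0.0630). RECK, a membrane-anchored inhibitor, did not pass (0.06 ± 0.08, adjusted p = 0.551).

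Of 11 ADAM proteases, 7 were measured, 3 rose and 1 fell (17.6% and 21.7% over all genes tested), with a list median of 0.14. ADAM28 and ADAM33 rose by 0.62 ± 0.09 and 0.54 ± 0.07 (adjusted p = 0.00547 and 0.00452). ADAM28 was at 7.70 FPKM in wild type under control siRNA against 1.06 and 2.36 FPKM in clone 1 and clone 2. ADAM15 rose by 0.26 ± 0.06 and ADAM10, a major sheddase, fell by 0.19 ± 0.04 (adjusted p = 0.0171 and 0.0118). Without clone 1 neither of these passed (adjusted p = 0.0923 and 0.0801), and ADAM10 did not without clone 2 (0.0573). Of 19 ADAMTS proteases, 4 were measured, 3 rose and 0 fell (against the same shares), with a median of 0.32. ADAMTS1, which cleaves proteoglycans, rose by 0.54 ± 0.06, from 166 to 220.3 FPKM in wild type, 104 to 172 in clone 1 and 65.8 to 93.0 in clone 2 (adjusted p = 0.00332). ADAMTS9 and ADAMTS4 rose by 0.32 ± 0.05 and 0.32 ± 0.08 (adjusted p = 0.00499 and 0.0255). The ADAMTS4 call was lost without wild type (adjusted p = 0.0736), clone 1 (0.0502) or clone 2 (0.0981).

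Genes that activate, dock or clear MMPs numbered 16 measured of 20. Of these 8 rose and 2 fell (17.6% and 21.7% over all genes tested), with a median of 0.16. PLAT, the tissue plasminogen activator, rose by 2.19 ± 0.25 (adjusted p = 0.00282). It was at 2.45 and 12.1 FPKM in wild type, 1.54 and 19.1 FPKM in clone 1, and 5.09 and 18.4 FPKM in clone 2. PLAU, the urokinase, fell by 0.65 ± 0.09 (adjusted p = 0.00571), from 11.4 to 8.65 FPKM, 32.9 to 19.2 and 37.6 to 20.6. Both enzymes make plasmin, an activator of MMP precursors, and they moved in opposite directions in each line. PLG, the gene of the plasmin precursor plasminogen, was listed at 0 in all 6 libraries. ITGAV, an integrin chain, rose by 0.39 ± 0.04 and PCSK5, a furin-like convertase, by 0.30 ± 0.05 (adjusted p = 0.00250 and 0.00794). The PLAU and PCSK5 calls were lost without clone 1 (adjusted p = 0.0507 and 0.0532).

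Of 32 matrix substrates, 17 were measured, 3 rose and 3 fell (17.6% and 21.7% over all genes tested), with a median of 0.07. COL5A2, a chain of a fibrillar collagen, fell by 0.62 ± 0.05 (adjusted p = 0.00165), from 577 to 413 FPKM in wild type, 769.7 to 473 in clone 1 and 596 to 371 in clone 2. LAMC1, a laminin chain of most basement membranes, rose by 0.45 ± 0.03 (adjusted p = 0.00156). LAMA3, another laminin chain, differed by -0.05, 0.45 and 0.82 in wild type, clone 1 and clone 2 and did not pass (0.41 ± 0.15, adjusted p = 0.0850). It passed without wild type, in the clones alone (adjusted p = 0.0167).

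Of 22 transcription factors known to act at MMP promoters, all were measured, 5 rose and 5 fell, with a median of 0.07. These counts lie near the shares over all genes tested (17.6% higher and 21.7% lower), so nothing is read from them. RELB and NFKB2, which form the non-canonical NF-κB dimer, rose by 0.80 ± 0.08 and 0.67 ± 0.05 (adjusted p = 0.00209 and 0.00156). Of the AP-1 factors, FOS rose by 0.62 ± 0.05 (adjusted p = 0.00169) while JUN fell by 0.55 ± 0.12 (adjusted p = 0.0201), from 32.0 to 28.7 FPKM in wild type, 24.5 to 14.2 in clone 1 and 26.6 to 15.2 in clone 2. The JUN call was lost without clone 1 (adjusted p = 0.115) or clone 2 (0.0866). Among the kidney epithelial markers 4 rose and 5 fell of 12 (17.6% and 21.7% over all genes tested), with a median of -0.09. They were led by CDH16 (0.82 ± 0.10), PAX8 (0.57 ± 0.05) and KRT19 (0.36 ± 0.04) upward (adjusted p = 0.00316, 0.00166 and 0.00341) and OCLN (-0.24 ± 0.05) downward (adjusted p = 0.0132). The OCLN call was lost without clone 1 (adjusted p = 0.0664) or clone 2 (0.0639). The leukocyte marker CD14 did not pass (adjusted p = 0.655).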

How the data were processed

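RNA of 6 libraries was sequenced after miRNeasy purification and TruSeq stranded mRNA library preparation, per the labels' protocols. The authors deposited FPKM values, with 1 value for each symbol in each library. HISAT2 2.1.0, Cufflinks 2.2.1 and Cuffdiff are named in the submitters' processing notes. Which genome build and gene models the authors took, and whether strand was used, is not given in the sources used here. Of 41401 symbols, 38797, all 9 members among them, matched RefSeq names of assembly UU_Cfam_GSD_1.0. The number of fragments is unknown, so no counting interval is given; relative depth was taken from the peak of ratios of values under 0.1 FPKM. No count model was run.

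The members and gene lists were chosen with earlier results of these data known. Values were transformed as log2(FPKM + 1), which understates changes of low genes, and the 12125 genes averaging at least 1 FPKM were fitted with limma 3.58.1 in R 4.3.3, with an intensity trend and Benjamini-Hochberg adjustment at 0.05 over all of them. The fit had 4 groups and 2 residual degrees of freedom, and the lone wild-type libraries were assumed to vary like the clones. Both degrees of freedom came from differences between the same 2 clones, 1 under each siRNA, and were treated as independent. For knockdown, a second fit had the line as block, since both libraries of a line share their origin; deviations of same-clone libraries from the group means correlated at r = 0.595 across genes. The labels name no separate cultures, and p-values thus cover only the spread among these libraries and lines. Named beside the members were up to 4 measured genes of each list with the largest mean knockdown difference and 5 genes per pattern search. The procedure was tested on simulated data. Other scalings, pseudocounts, filters, variance priors and left-out libraries or lines were tried. Some genes that the rule would name are not reported here. No sequences are shown.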

Additional observations from a re-analysis of the deposited data

Results flagged for a closer look

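TIMP1 after knockdown was lower in wild type and higher in both clones. The difference between PRL1 siRNA and control siRNA on log2(FPKM + 1) was -0.12 in wild type, 0.10 in clone 1 and 0.10 in clone 2. The difference between the lines was not tested, and wild type has 1 library per siRNA.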

How the results depend on the processing

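The unpaired limma fit of the knockdown called 0 genes higher and 0 lower. It called 64 and 74 with no filter on low values and 138 and 280 with a minimum mean of 5 FPKM, and leaving out 1 mutant library gave 0 to 2 higher and 0 to 1 lower. With the line as replicate block 2130 were higher and 2632 lower, with the clones alone 1739 and 2298, and leaving out 1 line at a time gave 749, 1103 and 1739 higher (without clone 1, clone 2 and wild type) and 960, 1318 and 2298 lower. Settings of the paired fit chosen after seeing the data gave 2169 and 2673 (pseudocount 0.1), 451 and 728 (no filter), 2341 and 2429 (rescaled) and 2019 and 2483 (no intensity trend). For clones against wild type the count of 0 became 6 higher and 159 lower with no filter and 4 lower without a trend; no block applies to that comparison, since each line has 1 genotype. The cause of these shifts was not tested. Without a wild-type library of a contrast no value could be had.

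Differences of genes that did not pass reversed for TIMP2 between clones and wild type without the clone 1 control library (0.081; range over left-out libraries -0.17 to 0.081), and after knockdown for RECK without the clone 2 knockdown library (range -0.018 to 0.15) and for CD14 without the clone 1 knockdown library (range -0.12 to 0.23), in the clones alone (-0.0067) and without clone 1 (-0.011). The other 5 tested members kept their direction between clones and wild type under every alternative run and passed under none. The low level of MMP14 limits any statement on it.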
